A study of Mus musculus with 6 samples.

Results

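Genes of the circadian clock were read in prefrontal cortex of tau transgenic mice given a WDR5 inhibitor, of tau transgenic mice given vehicle, and of control mice. The 10 genes were taken by name, 8 from the clock loop (Per1, Per2, Per3, Cry1, Cry2, Clock, Nr1d1 and Nr1d2) and 2 from its output (Dbp and Tef), out of 53640 gene symbols listed in all 6 libraries. All 10 passed the filter on low counts, which kept 20694 genes.

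The treated tau group was PS19(P301S) mice that received WDR5-0103, an inhibitor named for WDR5, itself a core subunit of histone H3 lysine 4 methyltransferases. The tau group was PS19(P301S) mice given vehicle. The control group was mice of a C57BL/6 x C3H background given vehicle. All mice were 6 months old, the tissue was bulk lysate of PFC, and each group had 2 libraries, which the labels call biological duplicates. PS19 mice carry human tau with the P301S change under the mouse prion (Prnp) promoter. For the hour of tissue collection, the light schedule and the WDR5-0103 dosing, the sources used here give nothing.

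The clock is a feedback loop of transcription that runs in most cells of the body, cortex included. CLOCK pairs with BMAL1 (the product of Arntl) and switches on genes with E-boxes in their promoters, among them the Per, Cry and Nr1d genes, Dbp and Tef. PER and CRY proteins return to the nucleus and silence that pair, so their own transcripts rise and fall over the day. REV-ERBα and REV-ERBβ, the products of Nr1d1 and Nr1d2, repress Arntl at sites where the ROR receptors activate it. DBP and TEF pass the rhythm on through D-boxes, where NFIL3 opposes them. Per1 and Per2 also answer to acute cues such as glucocorticoids and neuronal activity.

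The start-site windows of 4 genes are shown as examples that carry an E-box, an E′-box or a D-box, as defined below. They run from 250 bases before to 50 bases after the RefSeq start (GRCm38.p6), 5′ to 3′ on the gene's strand, at chr11:69098699-69098998 (plus strand) for Per1, chr4:151044616-151044915 (minus) for Per3, chr10:85185005-85185304 (minus) for Cry1 and chr11:98775328-98775627 (minus) for Nr1d1. Capitals mark an E-box (CACGTG), an E′-box (CACGTT, or AACGTG on the other strand) or a D-box (TTATGNAA).
Per1: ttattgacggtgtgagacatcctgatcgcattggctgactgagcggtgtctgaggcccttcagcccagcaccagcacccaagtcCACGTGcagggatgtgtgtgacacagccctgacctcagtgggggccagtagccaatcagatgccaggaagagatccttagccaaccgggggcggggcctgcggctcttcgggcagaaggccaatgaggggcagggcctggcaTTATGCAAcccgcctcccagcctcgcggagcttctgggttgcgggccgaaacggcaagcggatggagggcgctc
Per3: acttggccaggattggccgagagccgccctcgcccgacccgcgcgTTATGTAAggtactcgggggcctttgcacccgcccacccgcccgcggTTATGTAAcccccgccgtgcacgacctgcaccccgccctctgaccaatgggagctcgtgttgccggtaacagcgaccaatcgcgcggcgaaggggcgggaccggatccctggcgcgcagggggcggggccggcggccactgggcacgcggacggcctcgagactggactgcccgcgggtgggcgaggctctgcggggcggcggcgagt
Cry1: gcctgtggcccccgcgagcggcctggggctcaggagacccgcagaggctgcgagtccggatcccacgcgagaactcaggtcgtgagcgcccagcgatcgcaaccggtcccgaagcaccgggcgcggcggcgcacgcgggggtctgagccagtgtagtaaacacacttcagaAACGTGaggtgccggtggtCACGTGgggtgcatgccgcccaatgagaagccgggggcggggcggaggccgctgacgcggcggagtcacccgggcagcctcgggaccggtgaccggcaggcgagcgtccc
Nr1d1: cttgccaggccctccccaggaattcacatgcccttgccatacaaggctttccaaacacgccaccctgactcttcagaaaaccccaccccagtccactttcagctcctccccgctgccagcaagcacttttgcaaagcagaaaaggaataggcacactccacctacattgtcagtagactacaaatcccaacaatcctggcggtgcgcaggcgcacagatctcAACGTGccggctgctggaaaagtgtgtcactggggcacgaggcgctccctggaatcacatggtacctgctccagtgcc
The RefSeq table held 13 such windows for 9 of the 10 genes and none for Per2, and both strands were searched. Per1, Clock and Tef have several windows each, which are counted separately here although they are not independent. An E-box was found in 4 of the 13, against 7.15% of all 32851 windows in the table, with its first base at -166 in Per1, at -60 in Cry1 and at -127 and -138 before the 2 starts of Tef. An E′-box was found in 3 (Cry1 at -79, Cry2 at -166 and Nr1d1 at -28), against 4.68% of all windows. A D-box was found in 2, once in Per1 at -24 and at -205 and -158 in Per3, against 3.38%. The ROR and REV-ERB element TAGGTCA (2.61% of all windows) and the cAMP response element TGACGTCA (1.79%) were found in 0 of the 13. No matches overlapped, and 6 windows held none of the 5 motifs. These are matches of letters within short windows, not measured binding.

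**Figure D1:**
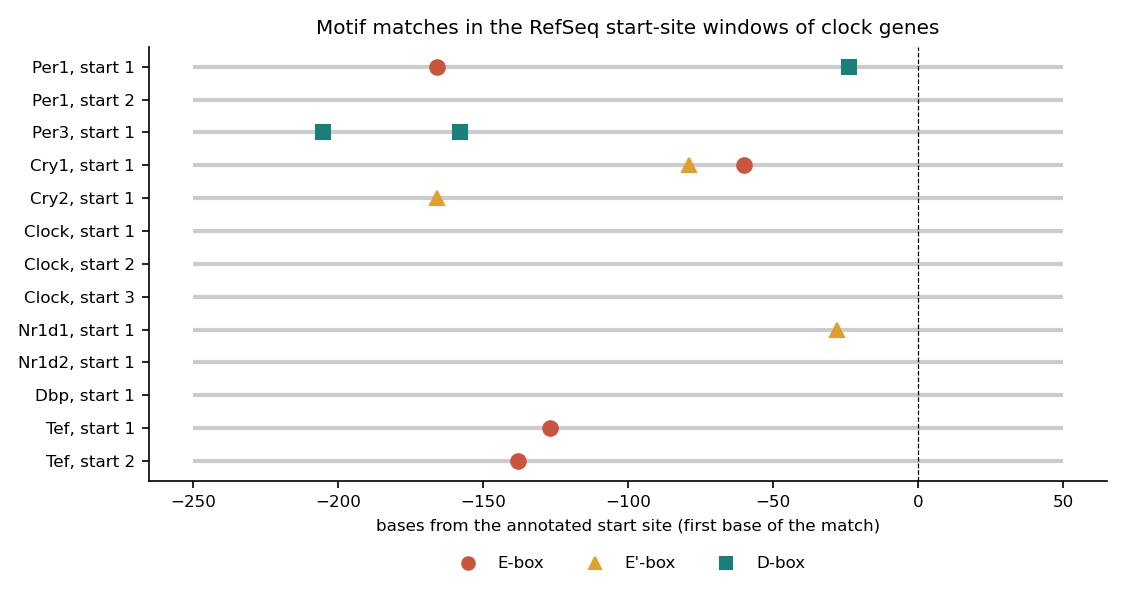
Motif matches in the RefSeq start-site windows of the clock genes. Each grey line is a window from 250 bases before to 50 bases after an annotated start (x axis, bases; dashed line, start), and symbols mark the first base of an E-box, E′-box or D-box; Per1, Per3, Cry1, Cry2, Nr1d1 and Tef held matches, and 6 windows held none.

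The depth behind the values was 17690811 counts (tau 2) to 34774643 counts (treated tau 1) per library. The lowest count of a member was 370 (Cry1 in tau 2), where counting error alone is 5.2%. Markers of excitatory cortical neurons were present throughout (summed 1433 to 1648 CPM, counts scaled to library size). Of 7 markers of the suprachiasmatic nucleus, the master clock of the hypothalamus, 3 passed the filter, the sum over all 7 was 8.02 to 15.7 CPM, and Six6 was at 0 in all 6 libraries. Several libraries stood apart. Prnp, which reads the transgene's promoter, set the library labelled control 1 (1654 CPM) against its label, since the 4 PS19 libraries had 1472 to 1876 CPM and control 2 had 876 CPM. Xist and Ddx3y put both treated tau libraries and the library labelled control 1 with males, and both tau libraries and control 2 with females, so an effect of sex and one of WDR5-0103 cannot be told apart between treated tau and tau. By these transcripts, tau against control is within 1 sex without the library labelled control 1, and treated tau against control is so without control 2. Only the control group held both sexes, so a term for sex rests on the library labelled control 1 against control 2 alone. Such a term cannot tell sex from other differences between those libraries. Striatal projection neuron markers summed to 127 and 106 CPM in treated tau, 151 and 261 CPM in tau and 104 to 116 CPM in control. All 10 were above their mean in both tau libraries. In treated tau against tau 3 of 10 were called lower, as were 140 of all 20694 genes tested. Oligodendrocyte markers summed to 5673 CPM in tau 2 and 1494 to 3028 CPM elsewhere, and olfactory bulb markers to 133 CPM in the library labelled control 1, beside 19.2 to 21.2 CPM elsewhere. The part of these differences in the clock values was not tested. In bulk tissue, fewer cells of a type and less RNA per cell cannot be told apart.

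Per length of annotated exon, Tef was the most abundant of the 10 in this cortex. Tef averaged 54.3 ± 4.04 RPKM (CPM per kilobase; SD over 6 libraries), Nr1d2 34.0 ± 4.32, Cry2 20.01 ± 1.63 and Clock 14.8 ± 0.839 RPKM. The ranges of these 4 did not overlap with one another, but Clock (13.8 to 16.2 RPKM) overlapped Nr1d1 (10.2 to 14.4). Below them came Dbp (12.2 RPKM on average), Nr1d1 (11.8), Per1 (8.45), Per2 (6.80), Cry1 (5.81) and Per3 (5.80), and neighbours in this order overlapped. Dbp, Nr1d1 and Per1 were above Cry1 and Per3 in every library.

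How far each gene varied over the 6 libraries is set beside 7331 protein-coding genes of like abundance, whose highest library was a median of 1.22 times the lowest (90th percentile 1.46). Per2 varied most of the 10, 3.01 times, and 0.382% of those genes had a larger ratio. Cry1 varied 1.49 times, Per1 1.48, Dbp 1.45, Nr1d2 1.44 and Nr1d1 1.42 times, with 8.44% to 12.6% of genes above them. Cry2 (1.25), Tef (1.22), Per3 (1.20) and Clock (1.17) were near the median.

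**Figure D2:**
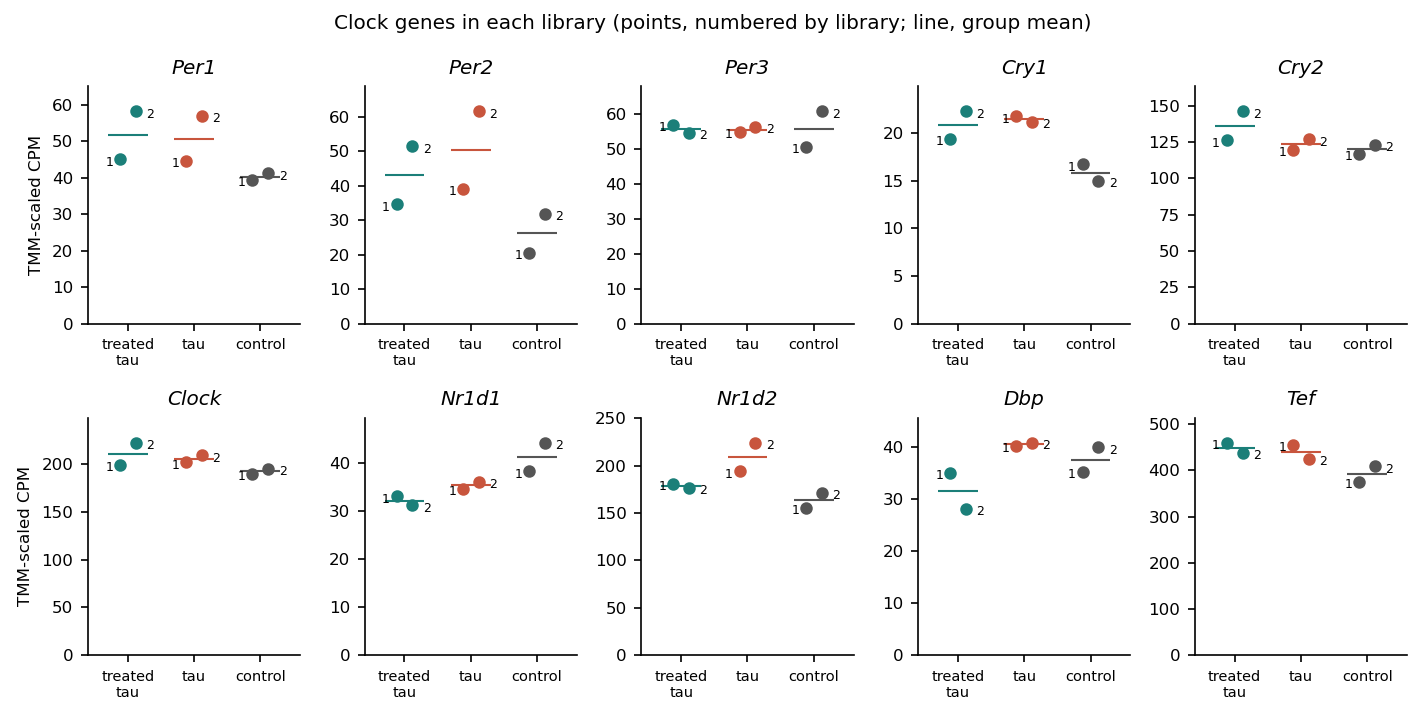
TMM-scaled CPM (y axis, linear from 0, a scale per gene) of the 10 clock genes in each library, with points numbered by library and a line at each group's mean. Per2 spans 20.4 to 61.6 CPM, both Cry1 values of the control group lie below the other 4, and Per3 and Clock vary little.

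Values below are CPM scaled by TMM, and log2 fold changes are from the quasi-likelihood test of edgeR with its standard error (SE). Adjusted p is the Benjamini-Hochberg value over all 20694 genes, two-sided, and a gene is called under 0.05. In treated tau against tau 0 of the 10 clock genes were called (3.76% of all genes tested were), and 2 of 10 had an unadjusted p under 0.05 (12% of all). In tau against control 0 of 10 were called, as were 0 genes in all (0%), while 3 of 10 and 2059 of all genes (9.95%) had an unadjusted p under 0.05. DESeq2 called 55 genes there, none of the 9 clock genes to which it gave an adjusted p, and limma-voom called 0 genes. Treated tau against control gave 0 of 10 (4.22% of all), and 5 of 10 had an unadjusted p under 0.05 (16.3%). All 10 clock genes are protein-coding, while the shares of all genes cover every gene type. With protein-coding genes only, far fewer genes were called in both comparisons of treated tau, as given at the end. The clock genes' median log2 fold change was -0.02, 0.14 and 0.16 in these 3 comparisons in that order, beside -0.01, -0.00 and -0.01 over all genes. The first and second comparison share the tau libraries, and both comparisons with control share the control libraries, so their values are not independent.

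Per1, Per2 and Per3 encode the PERIOD repressors, and Per2 had the largest differences of the 10 genes in both comparisons with control. Per2 (mm10 chromosome 1, 91415982 to 91459324, minus strand) was at 34.6 and 51.5 CPM in the treated tau libraries (replicates 1 and 2), at 39.1 and 61.6 CPM in tau, and at 20.4 CPM (the library labelled control 1) and 31.9 CPM (control 2) in control. All 4 PS19 libraries were above both control libraries, and treated tau and tau overlapped. Its log2 fold change was 0.93 ± 0.27 in tau against control (adjusted p = 0.441), 0.71 ± 0.27 in treated tau against control (0.217) and -0.22 ± 0.26 in treated tau against tau (0.85). The libraries decide much of the size. Tau against control was 0.65 without the library labelled control 1, 1.28 without control 2, 0.58 without tau 2, and 0.30 without both tau 2 and the library labelled control 1. Treated tau against control was 0.43 without the library labelled control 1 and 1.07 without control 2. With a term for sex, which rests on the control libraries alone, the value of treated tau against tau turned to 0.42. It turned to 0.14 with tau 2 left out and to 0.05 with treated tau 1 left out.

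Per1 followed a similar order at a smaller scale. It (chromosome 11, 69095217 to 69109960, plus strand) was at 45.0 and 58.2 CPM in treated tau, 44.6 and 56.9 CPM in tau, and 39.4 CPM (the library labelled control 1) and 41.2 CPM (control 2) in control. Within each group, control included, replicate 2 was the higher library, as it was for Per2. The log2 fold change was 0.35 ± 0.15 in treated tau against control (adjusted p = 0.27), 0.32 ± 0.15 in tau against control (0.506) and 0.03 ± 0.15 in treated tau against tau (0.975). Treated tau against control was 0.17 without treated tau 2 and 0.54 without treated tau 1. Tau against control was 0.15 without tau 2, and treated tau against tau turned to -0.14 without tau 1 and to -0.16 without treated tau 2.

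Per3, whose product is a weaker repressor, differed little between the groups. It (chromosome 4, 151003652 to 151044665, minus strand) was at 56.97 and 54.7 CPM in treated tau, 54.9 and 56.4 CPM in tau, and 50.6 CPM (the library labelled control 1) and 60.8 CPM (control 2) in control. The control libraries enclosed the other 4. The 3 log2 fold changes lay between -0.00 and 0.01, with SE of 0.10 to 0.11 and adjusted p of 0.994 to 0.996.

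Cry1 and Cry2 encode the cryptochromes, the main repressors of the CLOCK and BMAL1 pair. Cry1 (chromosome 10, 85131700 to 85185064, minus strand) was at 19.4 and 22.3 CPM in treated tau, 21.8 and 21.2 CPM in tau, and 16.7 CPM (the library labelled control 1) and 14.97 CPM (control 2) in control. The 4 PS19 libraries were all above the control libraries, with tau 1 and tau 2 close together. Against control, tau had a log2 fold change of 0.44 ± 0.13 (unadjusted p = 0.00757, adjusted 0.441) and treated tau one of 0.39 ± 0.13 (adjusted p = 0.154), and treated tau against tau was -0.05 ± 0.13 (0.943). Tau against control was 0.53 without the library labelled control 1 and 0.36 without control 2. Cry2 (chromosome 2, 92403646 to 92434043, minus strand) was at 126 and 146 CPM in treated tau, 119.7 and 127 CPM in tau, and 117 CPM (the library labelled control 1) and 123 CPM (control 2) in control, with log2 fold changes of 0.04 to 0.18 and adjusted p of 0.379 or more.

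Clock (chromosome 5, 76209868 to 76304792, minus strand) encodes the activator itself. It was at 199.9 and 222 CPM in treated tau, 202 and 209 CPM in tau, and 189.8 CPM (the library labelled control 1) and 195 CPM (control 2) in control. Both control libraries were the lowest, within a narrow range. Fold changes were small, at a log2 of 0.13 ± 0.08 in treated tau against control (adjusted p = 0.465), 0.10 ± 0.08 in tau against control (0.689) and 0.04 ± 0.08 in treated tau against tau (0.933).

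Nr1d1 and Nr1d2, the REV-ERB repressors, are close relatives that usually cycle together, and their groups lay in different orders here. Nr1d1 (chromosome 11, 98767932 to 98775333, minus strand) was at 33.1 and 31.2 CPM in treated tau, 34.7 and 36.1 CPM in tau, and 38.3 CPM (the library labelled control 1) and 44.3 CPM (control 2) in control. No 2 groups overlapped, with treated tau lowest and control highest. In a given pair of groups, 41.3% to 46.3% of all genes did not overlap, and the share with all 3 groups apart was not computed. Its log2 fold change was -0.36 ± 0.11 in treated tau against control (unadjusted p = 0.00756, adjusted 0.113), -0.22 ± 0.11 in tau against control (adjusted p = 0.519) and -0.14 ± 0.11 in treated tau against tau (0.739). Treated tau against tau turned to 0.07 with a term for sex, and tau against control was -0.12 without control 2. Without tau 2 and the library labelled control 1 together, an alternative chosen after seeing the data, treated tau against control was -0.45 with an adjusted p of 0.0425, the only 1 of the 18 alternatives that called Nr1d1 in this comparison.

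Nr1d2 (chromosome 14, 18204054 to 18239127, minus strand) was at 181 and 177 CPM in treated tau, 194 and 224 CPM in tau, and 156 CPM (the library labelled control 1) and 171 CPM (control 2) in control. Again no 2 groups overlapped, but tau was highest and control lowest. On the log2 scale the fold change was 0.35 ± 0.09 in tau against control (unadjusted p = 0.00338, adjusted 0.441), -0.22 ± 0.09 in treated tau against tau (adjusted p = 0.341) and 0.13 ± 0.09 in treated tau against control (0.541). Its sign held in all 18 alternatives of each comparison, with 0.18 to 0.46 in tau against control. The value of treated tau against tau was -0.12 without tau 2 and -0.089 with a term for sex, and that of treated tau against control was 0.066 without the library labelled control 1. Nr1d1 shares 263 exonic bases (8.55% of its exons) with Thra on the other strand, and whether reads were counted by strand is not known from the sources. Thra lay between 411 and 456 CPM.

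Dbp (chromosome 7, 45705088 to 45710203, plus strand) is an output activator that follows CLOCK and BMAL1 closely. It was at 35.0 and 28.1 CPM in treated tau, 40.1 and 40.7 CPM in tau, and 35.1 CPM (the library labelled control 1) and 39.8 CPM (control 2) in control. Treated tau 2 was the lowest library, and treated tau lay below both other groups, by only a narrow margin from the library labelled control 1. The log2 fold change was -0.35 ± 0.13 in treated tau against tau (unadjusted p = 0.0196, adjusted 0.252), -0.24 ± 0.12 in treated tau against control (adjusted p = 0.382) and 0.11 ± 0.13 in tau against control (0.777). Against tau it stayed negative in all 18 alternatives, from -0.52 to -0.17 (with a term for sex). Treated tau against control was -0.092 without treated tau 2 and -0.41 without treated tau 1, and tau against control was 0.023 without the library labelled control 1 and 0.20 without control 2. Dbp shares 539 exonic bases (18%) with Sphk2 on the other strand, which lay between 15.6 and 20.9 CPM.

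Tef (chromosome 15, 81802421 to 81826863, plus strand) is the other output activator. It was at 459.7 and 439 CPM in treated tau, 456 and 424 CPM in tau, and 375 CPM (the library labelled control 1) and 409 CPM (control 2) in control. All 4 PS19 libraries were above the control libraries. The log2 fold change was 0.20 ± 0.08 in treated tau against control (unadjusted p = 0.0286, adjusted 0.235), 0.17 ± 0.08 in tau against control (adjusted p = 0.506; 0.11 to 0.23 over the 18 alternatives) and 0.03 ± 0.08 in treated tau against tau (0.947).

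**Figure D3:**
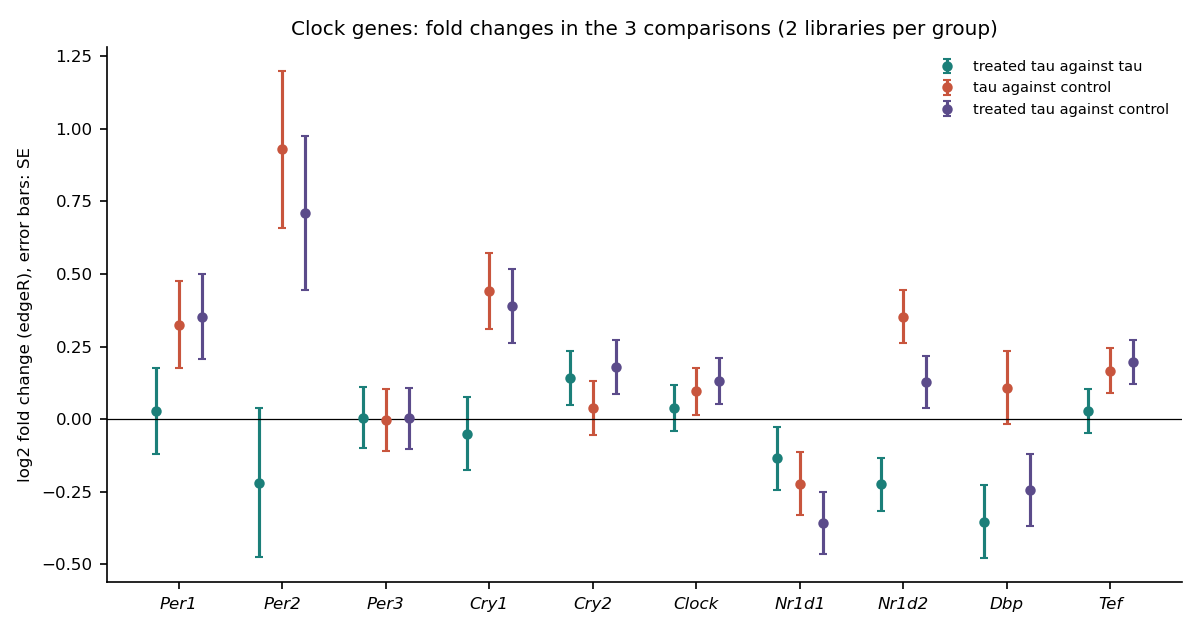
Log2 fold changes of the 10 clock genes (y axis) from edgeR in the 3 comparisons, as points with bars of 1 SE, from 2 libraries per group. Per2 in tau against control is the highest point (0.93) and Nr1d1 in treated tau against control the lowest (-0.36), and none of the 30 points passed the threshold.

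Counted as groups, 7 of the 10 genes had both tau libraries above both control libraries (Per1, Per2, Cry1, Clock, Nr1d2, Dbp and Tef), where 20.3% of all genes did, and 1 had both below (Nr1d1; 21.3% of all genes). Both treated tau libraries were above both control libraries for 7 genes (Per1, Per2, Cry1, Cry2, Clock, Nr1d2 and Tef; 23% of all) and below both for 2 (Nr1d1 and Dbp; 23.3% of all). Against tau, both treated tau libraries were above for 0 (21.2% of all) and below for 3 (Nr1d1, Nr1d2 and Dbp; 20.1% of all). The library labelled control 1 held the lowest value of 7 of the 10 genes (Per1, Per2, Per3, Cry2, Clock, Nr1d2 and Tef), with a median deviation of -0.16 from the genes' own means on the log2 scale. Tau 2 was above the mean for 9 of the 10. Treated tau 2 held the highest value of Per1, Cry1, Cry2 and Clock and the lowest of Nr1d1 and Dbp. For these counts by library, the shares over all genes were not computed, so they may not be particular to clock genes.

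Further activators and the ROR receptors were read beside the 10 genes. Arntl, which encodes BMAL1, was at 45.3 and 56.9 CPM in treated tau, 42.8 and 34.2 CPM in tau, and 40.4 CPM (the library labelled control 1) and 40.2 CPM (control 2) in control. Treated tau lay above both other groups, treated tau 2 the highest and tau 2 the lowest library, the reverse of Dbp in treated tau 2. Arntl had a log2 fold change of 0.40 ± 0.14 in treated tau against tau (adjusted p = 0.239), -0.06 ± 0.14 in tau against control (0.915) and 0.34 ± 0.14 in treated tau against control (0.252). In the same order of comparisons, Npas2, a relative of Clock, had 0.09, 0.08 and 0.17. Of the ROR receptors, Rorb had 0.42, -0.31 and 0.11 and Rora 0.09, 0.22 and 0.31. None of these passed.

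Among further repressors and D-box factors, Ciart, a repressor of CLOCK and BMAL1, had the smallest adjusted p of the listed clock genes. It was at 10.99 and 7.57 CPM in treated tau, 14.3 and 19.4 CPM in tau, and 12.4 CPM (the library labelled control 1) and 12.4 CPM (control 2) in control. Treated tau was below both other groups and tau above them. The log2 fold change was -0.83 ± 0.20 in treated tau against tau (adjusted p = 0.0636), which missed the threshold. Bhlhe40, an E-box repressor also induced by activity, had 0.56 ± 0.12 in tau against control (adjusted p = 0.441) and 0.35 ± 0.12 in treated tau against control (0.177). Hlf, of the Dbp family, had 0.34 ± 0.12 in treated tau against control (0.172). Timeless had 0.65 in treated tau against tau and -0.57 in tau against control, with adjusted p of 0.215 and 0.466.

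Over the 38 further clock genes listed, 0 were called in any comparison. Those with an unadjusted p under 0.05 were 10 in treated tau against tau (12% of all genes), 4 in tau against control (9.95% of all) and 6 in treated tau against control (16.3% of all). Of 9 kinases and ligases that time the PER and CRY proteins, the 2 of smallest p in treated tau against control were Csnk1d (0.24, adjusted p = 0.178) and Gsk3b (0.15, 0.468). Those of treated tau against tau were Gsk3b (0.21, 0.405) and Csnk1d (0.13, 0.628), and in tau against control Fbxw11 (0.13, 0.572) and Csnk2b (0.13, 0.611). Of 8 cofactors, Nono, an RNA-binding partner of PER proteins, had -0.32 in treated tau against tau (0.129) and -0.27 in treated tau against control (0.18), with Prmt5 at 0.17 (0.501). Ddb1 had 0.12 in tau against control (0.577). Of 9 clock-controlled genes, Coq10b had -0.28 in treated tau against tau (0.422) and 0.39 in tau against control (0.441). Noct, a rhythmic deadenylase relative, had 0.25 in treated tau against tau (0.392), and Nampt, which makes a precursor of NAD, 0.22 in tau against control (0.511). The pair of smallest p in treated tau against control was Usp2 (-0.21, 0.497) and Por (0.15, 0.50).

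**Figure D4:**
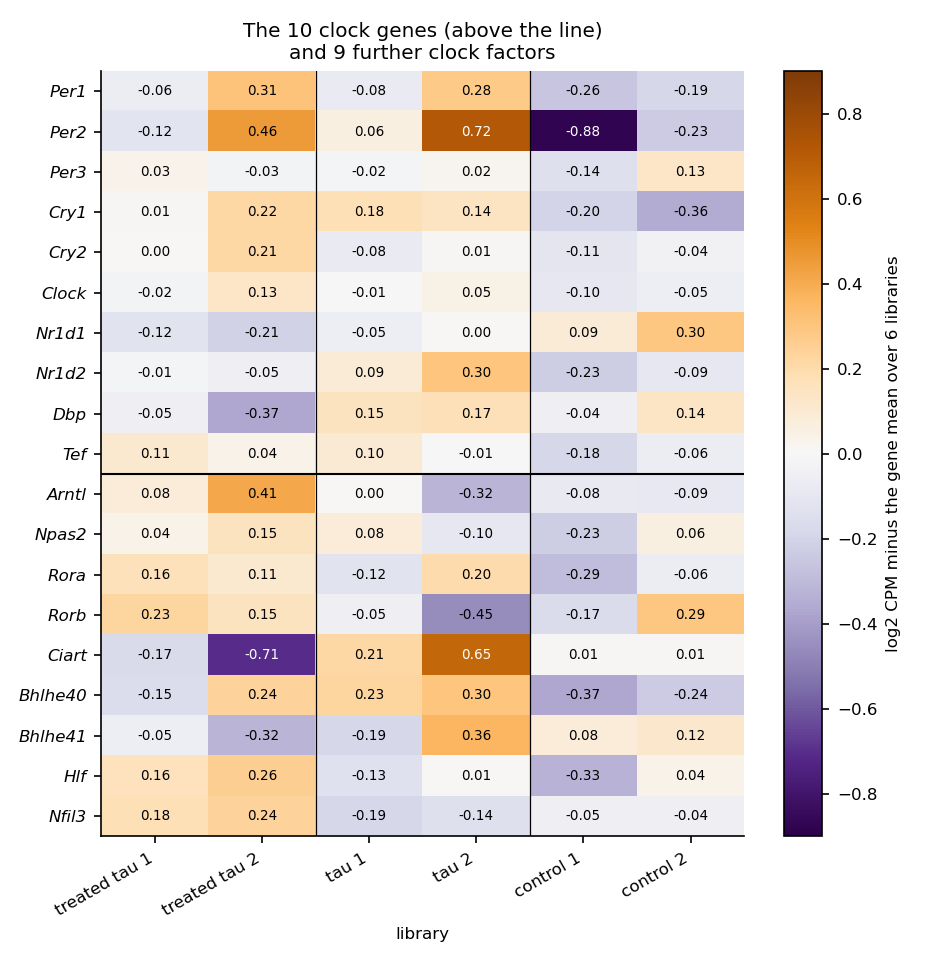
Log2 CPM of the 10 clock genes (above the line) and 9 further clock factors minus each gene's mean over the 6 libraries, with orange above and purple below the mean and the value in each cell. Per2 spans the widest range (-0.88 in the library labelled control 1, 0.72 in tau 2), and in treated tau 2 Arntl (0.41) is high where Ciart (-0.71) and Dbp (-0.37) are low.

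Clock transcripts peak at different hours, so the balance between them within a library is read as a sign of the hour, and it does not depend on scaling between libraries. Transcripts that in mouse tissues peak from day to dusk (9 listed, among them Per1, Per2, Per3, Nr1d1, Nr1d2, Dbp and Tef) were set against those that peak from night to dawn (5 listed, among them Cry1, Clock and Arntl). The mean log2 CPM of the day set exceeded that of the night set by 0.45 and 0.24 in treated tau, 0.57 and 0.91 in tau, and 0.52 (the library labelled control 1) and 0.67 (control 2) in control. Treated tau was below the other 4 libraries, by a gap smaller than the spread within each group. With the members alone (7 and 2 genes) the differences were 0.18 and 0.05 in treated tau, 0.15 and 0.32 in tau, and 0.12 (the library labelled control 1) and 0.41 (control 2) in control, and the groups overlapped.

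Ratios between a pair of genes, chosen after their values were seen, are given as ratios of counts not scaled by length. The Per2 to Nr1d1 ratio was 1.04 and 1.65 in treated tau, 1.13 and 1.71 in tau, and 0.533 (the library labelled control 1) and 0.721 (control 2) in control. The Nr1d2 to Nr1d1 ratio was 5.46 and 5.65 in treated tau, 5.59 and 6.205 in tau, and 4.07 (the library labelled control 1) and 3.87 (control 2) in control. The Cry1 to Nr1d1 ratio was 0.585 and 0.714 in treated tau, 0.627 and 0.587 in tau, and 0.437 (the library labelled control 1) and 0.338 (control 2) in control. These 3 ratios share Nr1d1 and were picked from 8 computed because both control libraries lay below the PS19 libraries, so that order is no support for the labels. The Per2 to Dbp ratio showed it too, with 0.583 (the library labelled control 1) and 0.801 (control 2) beside 0.974 to 1.83 in PS19. Others did not show it. The Per1 to Dbp ratio was 1.111 in tau 1 and 1.123 in the library labelled control 1. The Per2 to Arntl ratio was 0.764 in treated tau 1 and 0.794 in control 2. The Dbp to Arntl ratio was 0.773 and 0.493 in treated tau, 0.937 and 1.19 in tau, and 0.869 (the library labelled control 1) and 0.991 (control 2) in control, so treated tau was lowest.

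**Figure D5:**
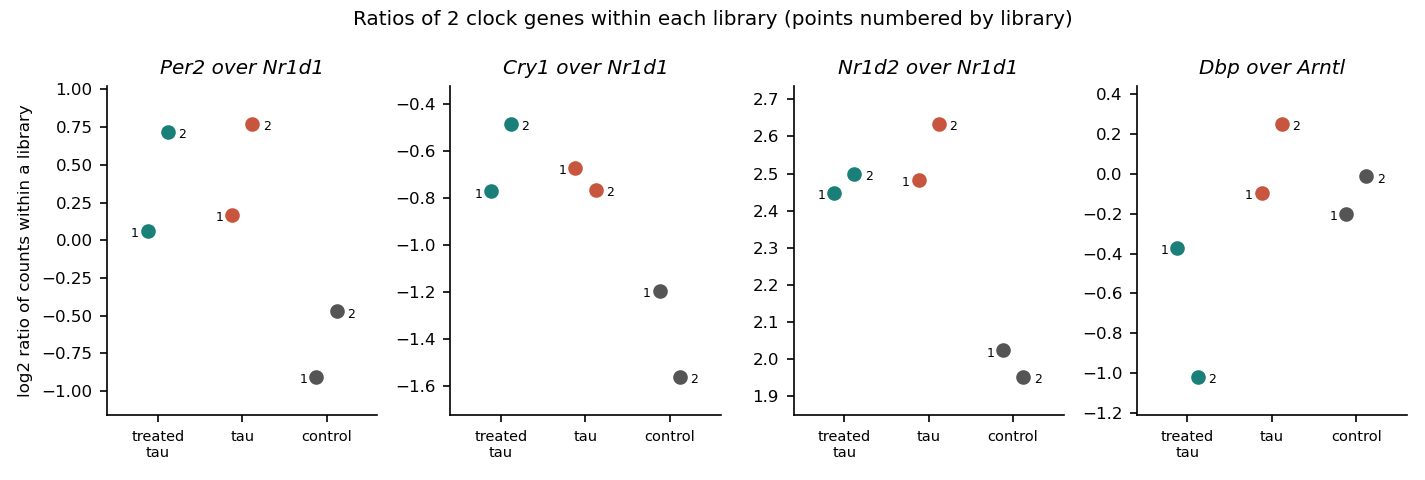
Log2 ratios of the counts of pairs of clock genes within a library (y axis, a scale per panel), with points numbered by library. The control libraries are lowest for Per2, Cry1 and Nr1d2 over Nr1d1, and the treated tau libraries are lowest for Dbp over Arntl.

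Transcripts that respond to acute cues known to reach Per1 and Per2 were read in the same libraries, with no cue itself measured. The median of 14 glucocorticoid-induced genes, as log2 CPM minus each gene's mean, was 0.10 and -0.07 in treated tau, -0.05 and 0.56 in tau, and -0.26 (the library labelled control 1) and -0.26 (control 2) in control. All 14 were above their mean in tau 2, the library with the highest Per2. Sgk1, which glucocorticoids induce and oligodendrocytes also express, was at 122 and 65.5 CPM in treated tau, 75.2 and 207 CPM in tau, and 67.3 CPM (the library labelled control 1) and 64.7 CPM (control 2) in control. None of the 14 was called in any comparison. The 2 of smallest p were Pdk4 (-0.73, adjusted p = 0.305) and Mt2 (-0.53, 0.355) in treated tau against tau, Mt1 (0.53, 0.441) and Tsc22d3 (0.76, 0.441) in tau against control, and Mt1 (0.37, 0.127) and Sult1a1 (0.64, 0.152) in treated tau against control.

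The median of 12 immediate early genes, which neurons switch on within minutes of activity, was -0.94 and 0.90 in treated tau, -0.48 and 0.29 in tau, and 0.31 (the library labelled control 1) and -0.10 (control 2) in control. Replicate 2 was the higher library in both PS19 groups, as for Per1 and Per2, and the lower one in the control group, where Per1 and Per2 were higher in replicate 2. Only Egr3 of the 12 was called, higher in treated tau against tau (0.70, adjusted p = 0.0276) and in treated tau against control (0.63, 0.0406). Of all genes, protein-coding or not, 3.76% and 4.22% were called in these comparisons. In treated tau 1, Egr3 was the only 1 of the 12 above its own mean. Its values were 81.1 and 91.8 CPM in treated tau, 45.3 and 62.1 CPM in tau, and 52.0 CPM (the library labelled control 1) and 60.0 CPM (control 2) in control. Egr1 had 0.50 in treated tau against tau (0.715) and 0.76 in treated tau against control (0.363), and in tau against control Btg2 had -1.24 (0.452) and Ier2 -0.80 (0.537).

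Of 8 cold- and heat-inducible genes, Hspa1b, a heat shock chaperone, rose in treated tau against control (1.14, adjusted p = 0.0255), with 6.81 and 9.25 CPM in treated tau and 3.08 CPM (the library labelled control 1) and 4.12 CPM (control 2) in control. Of all genes, 4.22% were called in treated tau against control. Rbm3 (-0.49, adjusted p = 0.219) and Cirbp (-0.10, 0.896), the cold-inducible genes of the list, had negative values there. Dnajb1 had 0.41 in treated tau against control (0.172) and 0.21 in tau against control (0.619). In the latter Hspb1 had -0.65 (0.616). Treated tau against tau gave Hspa1b 0.75 (0.171) and Hspb1 0.99 (0.351). The list's median was 0.19 and 0.51 in treated tau, -0.02 and -0.14 in tau, and -0.21 (the library labelled control 1) and -0.15 (control 2) in control. This median pools the cold- and the heat-inducible genes. The part of these cue-responsive genes in the clock values was not tested.

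The mean of the centred log2 CPM of Per1, Per2, Per3, Nr1d1, Nr1d2, Dbp and Tef was -0.03 and 0.02 in treated tau, 0.03 and 0.21 in tau, and -0.23 (the library labelled control 1) and -0.00 (control 2) in control. The 10 clock genes were among 10841 genes with an average log2 CPM of at least 3. Those most like the mean over the 6 libraries were Gng7, Bscl2, Gjb6, Dusp26 and Grm3 (Pearson's r of 0.98 each, as a description). Per2 and Nr1d2 followed the mean they helped to set (0.93 each), Per1 less (0.74), Per3 and Tef less still (0.54 each), Dbp little (0.30), and Nr1d1 did not (-0.19). Over 6 libraries that differ in depth and cell makeup, Per1 ranked 798 of those genes by its r.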

How the data were processed

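Total RNA of PFC tissue was sequenced in 6 libraries, 2 in each of 3 groups. Per the labels' protocols, ribosomal RNA was depleted, strand-specific TruSeq libraries were sequenced on a HiSeq, and Cutadapt trimming was followed by TopHat2 alignment. Besides TopHat2, the submitters' processing notes list edgeR, featureCounts and SAMtools, on build mm10. Tool versions, the strand setting and the counting of multi-mapped reads were not given in the sources used here. Deposited values are raw read counts per gene symbol, 1 table per library.

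For the 53640 symbols common to all tables, filterByExpr (minimum count 10) and TMM scaling preceded the quasi-likelihood fit in edgeR 4.0.16 (R 4.3.3; glmQLFit and glmQLFTest) over all 6 libraries with no covariate. The test was checked on simulated counts. Log2 CPM used a prior count of 2. Positions and exon lengths came from GENCODE M21, windows from RefSeq. All 10 members were named in every comparison, Arntl always, and of each further clock or cue list the called genes or the 2 of smallest p. A listed cofactor is not reported here. The members and lists were chosen with earlier results of these data known. Replicate numbers were not taken as pairs. Alternatives included DESeq2 1.42.0, limma-voom (limma 3.58.1), other scalings and filters, a term for sex, a replicate block and leaving out libraries.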

Additional observations from a re-analysis of the deposited data

How the results depend on the processing

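The 10 clock genes had 0 calls in every comparison and alternative, with 2 exceptions in treated tau against control. With a replicate block 1 member was called (Per2, 0.72, adjusted p = 0.00411), and without tau 2 and the library labelled control 1 together, an alternative chosen after seeing the data, 1 was called (Nr1d1, -0.45, 0.0425). Over all genes, deviations of same-numbered libraries hardly correlated between groups (0.07, 0.01 and -0.01), which cannot exclude a pairing. The block changed no other member's call. Over 18 alternatives per gene, sign changes were 16 of 180 values in treated tau against tau, 9 in tau against control and 7 in treated tau against control. The causes were not tested.

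In treated tau against tau, Per3 was -0.016 with upper-quartile factors and -8.54e-05 with a minimum count of 50, against 0.01. With a sex term, which rests on the control libraries alone, Per2 was 0.42 and Nr1d1 0.072. Without 1 library, ranges that crossed 0 were -0.16 to 0.21 (Per1), -0.53 to 0.14 (Per2), -0.021 to 0.038 (Per3), -0.15 to 0.056 (Cry1), -0.038 to 0.12 (Clock) and -0.018 to 0.083 (Tef). Without tau 2 and the library labelled control 1 together, Per2 was 0.14 and Tef -0.021. In tau against control, Per3 was 9.44e-05 with DESeq2, 0.0025 with limma-voom and 0.0017 with a replicate block, with -0.13 to 0.14 without 1 library. Cry2 was -0.0011 to 0.084 without 1 library and -0.037 without both named above. In treated tau against control, Per3 was -0.042 with upper-quartile factors, -0.025 with a minimum count of 50, -0.012 with protein-coding genes only, -0.0026 with only those 2 groups fitted, -0.12 to 0.15 without 1 library and -0.12 without both.

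Genes called in treated tau against tau were 779, and 45 with protein-coding genes only, 166 with a sex term and 355 to 840 without 1 library. In tau against control DESeq2 called 55, the fits without 1 library 0 to 98 (98 without control 2, 9 without tau 2), and the fit without tau 2 and the library labelled control 1 130, against 0. In treated tau against control protein-coding genes only gave 40 and the fits without 1 library 494 to 816, against 873. Depth limits Cry1 most (370 counts in tau 2).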
